A study of Mus musculus with 79 samples.

Results

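A set of 7 genes of β-adrenergic cAMP signalling was followed in mouse quadriceps muscle, with Prkar2b, the type II-beta regulatory subunit of cAMP-dependent protein kinase (PKA), at the centre. The others were the regulatory subunits Prkar2a and Prkar1a, the catalytic subunit Prkaca, the β3-adrenergic receptor Adrb3, and the cAMP phosphodiesterases Pde3b and Pde4d. The 7 genes were picked by symbol, out of 22335 named genes on the array, and each had 1 probeset out of 35556. All animals were males of the BXD family, which are inbred lines bred from the parents C57BL/6J and DBA/2J, or of the parental strains themselves, and all were fasted overnight and sacrificed at 29 weeks. Mice ate a chow diet (CD, Harlan 2018) or, from 8 weeks of age, a high fat diet (HFD, Harlan 06414). The 79 arrays held 42 CD and 37 HFD samples from 42 strains, with both diets present for 37 strains and CD alone for 5. Each array carried RNA pooled from about 5 animals of a strain on a diet, so p-values measure the spread between strains and arrays and not between animals. Values are the deposited score, a log-type measure with a mean of 8.0 and an SD of 2.0 on every array, and its log base was not stated. Differences are therefore given in score units and not as folds.

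PKA is held inactive as a complex of regulatory and catalytic subunits. Adenylate cyclases, driven by β-adrenergic receptors through a stimulatory G protein, make cAMP, which binds the regulatory subunits and frees the catalytic ones, and phosphodiesterases end the signal by breaking cAMP down. In fat cells this route starts lipolysis, since PKA phosphorylates perilipin (Plin1) and hormone-sensitive lipase (Lipe), and Adrb3 is the receptor typical of rodent fat. The regulatory subunit made by Prkar2b is the main one of fat cells and is also found in brain, whereas those of Prkar1a and Prkar2a are made in most tissues, muscle included. Pde3b is the phosphodiesterase through which insulin restrains lipolysis.

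The samples had the profile of muscle with some fat. The mean score of 8 fast fibre markers lay between 14.282 and 14.598 on all arrays, and that of 14 fat cell markers between 8.945 and 10.485, where Adipoq, the adipokine that defines fat cells, ran from 8.569 to 11.71. In such bulk samples fewer cells of a type and less RNA per cell cannot be told apart. A few strains stood apart. In BXD63 the diet difference over 1154 olfactory receptor probesets correlated at -0.537 with that of the other strains, against 0.421 to 0.649 in the 36 others, so its arrays went against their diet labels in that profile. Among the 7 members and 14 fat cell markers its HFD minus CD difference had the direction of most strains in 19 of 21 genes, such as Lep (1.26) and Cidec (1.15), and the opposite one in Prkaca (-0.08) and Thrsp (0.304). In BXD56 on CD the mean of the fat cell markers was the highest of that diet at 10.359, with 9.942 next, and 9 of the 14 markers were highest there, whereas Lep, which encodes leptin, was at 7.95, place 26 of 42. In DBA/2J on HFD the mean of the 3 brown fat cell markers was highest, at 8.60 against 8.03 on the next array. Ucp1, the uncoupling protein of brown fat, stood at 9.94 against a median of 6.61, and Cidea at 8.84 against 7.25. Elovl3, at 7.01, was little above its mean of 6.78 over all arrays. Main results that change without one of these are given both ways, whereas some values of batch 2 alone are given only with BXD56.

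Promoter sequences are shown for Prkar2b, for Plin1, 1 of the genes that followed it closely, for Lep, and for Prkar1a, the only member with a cAMP response element in these windows. They are the 250 bases before the gene start from RefSeq (GRCm38.p6), which listed a promoter for 5 of the 7 members: Prkar2b, Prkar2a, Prkar1a, Prkaca and Pde4d. Capitals mark matches, on either strand, to the cAMP response element TGACGTCA, the GC box GGGCGG, the E-box CACGTG, and the C/EBP site TTGCNNAA. The DR1 direct repeat that PPARγ dimers bind was also searched and was in none of the 4 windows printed, and no 2 kinds of match overlapped in the windows printed. Prkar2b lay at chr12:32061278-32061527 on the minus strand, Plin1 at chr7:79732777-79733026 on the minus strand, Lep at chr6:29059971-29060220 on the plus strand, and this Prkar1a window at chr11:109650699-109650948 on the plus strand.
Prkar2b: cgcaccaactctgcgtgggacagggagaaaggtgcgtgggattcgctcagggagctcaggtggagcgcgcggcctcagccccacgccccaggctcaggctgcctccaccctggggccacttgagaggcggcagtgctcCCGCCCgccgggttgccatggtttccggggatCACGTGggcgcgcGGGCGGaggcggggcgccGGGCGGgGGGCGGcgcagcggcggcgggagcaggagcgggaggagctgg
Plin1: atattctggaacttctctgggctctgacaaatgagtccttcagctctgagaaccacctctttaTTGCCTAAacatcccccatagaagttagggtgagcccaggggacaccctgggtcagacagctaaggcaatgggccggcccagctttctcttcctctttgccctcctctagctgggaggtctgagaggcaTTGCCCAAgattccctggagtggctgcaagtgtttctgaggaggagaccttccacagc
Lep: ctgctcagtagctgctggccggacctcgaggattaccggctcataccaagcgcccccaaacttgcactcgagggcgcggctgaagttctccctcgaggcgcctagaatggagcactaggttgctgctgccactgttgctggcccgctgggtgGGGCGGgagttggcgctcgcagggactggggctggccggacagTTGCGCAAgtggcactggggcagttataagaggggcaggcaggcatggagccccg
Prkar1a: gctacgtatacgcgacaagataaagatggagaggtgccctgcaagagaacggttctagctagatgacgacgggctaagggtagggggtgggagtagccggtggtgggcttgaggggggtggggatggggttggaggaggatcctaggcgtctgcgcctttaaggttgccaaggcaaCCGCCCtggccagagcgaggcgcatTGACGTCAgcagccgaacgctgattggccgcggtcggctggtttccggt
The Prkar2b window held 4 GC boxes, which began 112, 67, 49 and 42 bases before the start, and 1 E-box at 80 bases, but neither the cAMP response element nor the C/EBP site. The other Prkar2b window in the RefSeq list held none of these motifs. Plin1 held 2 C/EBP sites and Lep 1 C/EBP site and 1 GC box. Of 32851 windows of this length, 32.7% held a GC box, 6.02% the E-box, 9.56% the C/EBP site, 0.0335% the DR1 repeat and 1.55% the cAMP response element, which in Prkar1a began 49 bases before the start in 1 of its 6 windows. These matches describe letters only.

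Prkar2b rose on HFD, and it was the member with the largest diet difference. Its score ran from 7.58 (BXD50) through a median of 8.36 to 10.25 (BXD56) on CD, and from 8.11 (BXD49) through 9.12 to 10.14 (BXD79) on HFD. The groups overlapped widely, and no HFD array was above all CD arrays, but 34 of 37 HFD values lay above the CD median. The mean was 8.47 ± 0.52 (SD, n = 42) on CD and 9.11 ± 0.56 (SD, n = 37) on HFD, a difference of 0.64 ± 0.12 (SE) with an adjusted p of 9.63e-06 by limma over all probesets. Within strains it was higher on HFD in 31 of 37, from a fall of 0.503 in BXD56 to a rise of 1.58 in DBA/2J, with a median of 0.709. The difference was 0.75 in batch 1 alone and 0.56 in batch 2 alone, 0.62 without BXD63, 0.67 without BXD56, 0.63 without the DBA/2J HFD array, and 0.64 with strain as a block.

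**Figure D1:**
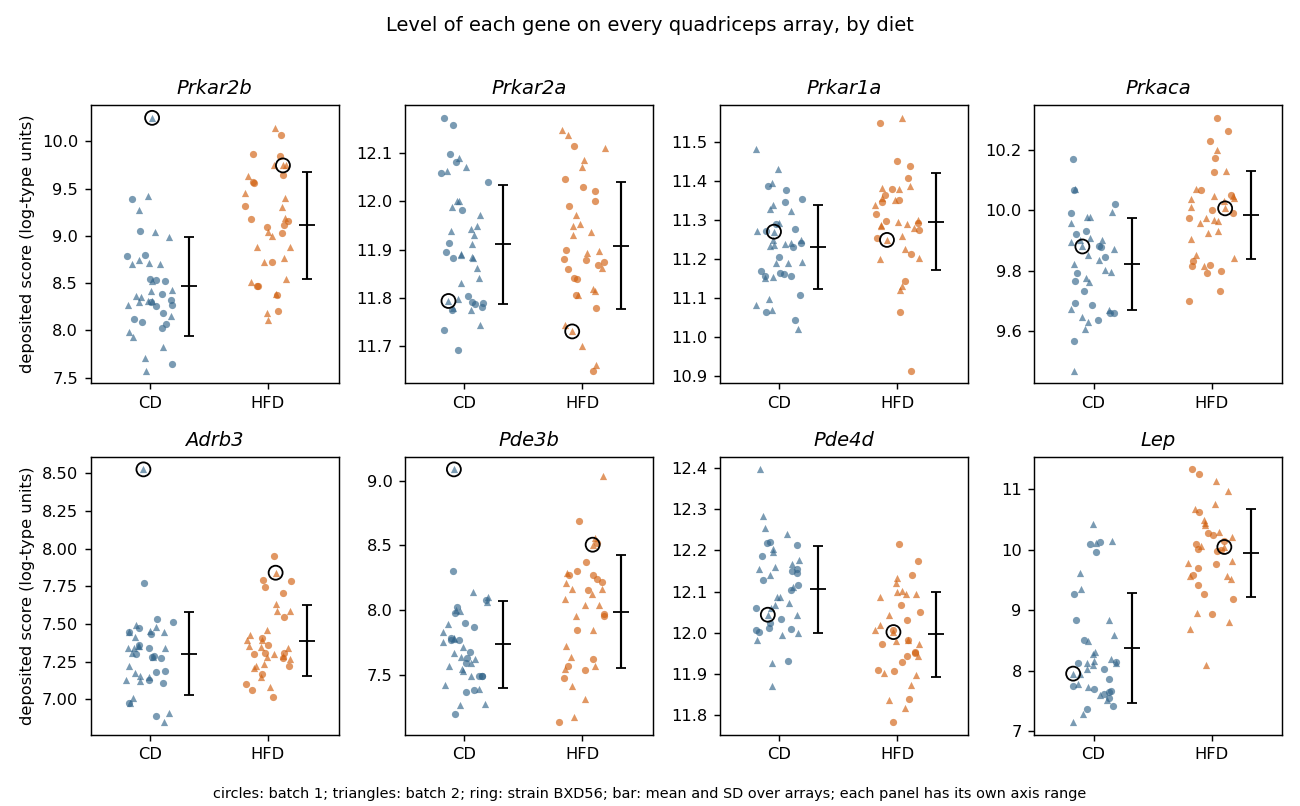
Deposited score (log-type units, 1 axis range per panel) of the 7 members and Lep on the 42 CD and 37 HFD arrays, with circles for batch 1, triangles for batch 2, a ring around strain BXD56 and a bar for the mean and SD over arrays. Prkar2b is higher on HFD with means of 9.11 against 8.47, and BXD56 stands alone on CD in Prkar2b, Adrb3 and Pde3b.

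The other regulatory subunits differed little between diets. Prkar2a ran from 11.69 (BXD60) through 11.89 to 12.17 (BXD95) on CD and from 11.65 (BXD44) through 11.89 to 12.15 (BXD75) on HFD. Its difference was -0.003 ± 0.029 (SE; 95% interval -0.061 to 0.055, adjusted p = 0.945 by limma), and it was higher on HFD in 17 of 37 strains, and both diets covered nearly the same range. Prkar1a ran from 11.02 (BXD83) through 11.24 to 11.48 (BXD84) on CD and from 10.92 (C57BL/6J) through 11.30 to 11.56 (BXD69) on HFD. Its difference of 0.064 ± 0.027 (SE) sat at the threshold (adjusted p = 0.0498 by limma, higher in 24 of 37 strains) and did not pass with strain as a block (adjusted p = 0.0768) or without BXD63 (adjusted p = 0.0573). The catalytic subunit Prkaca ran from 9.47 (BXD50) through 9.84 to 10.17 (BXD87) on CD and from 9.70 (BXD51) through 9.99 to 10.31 (BXD100) on HFD. It was 0.16 ± 0.03 (SE) higher on HFD (adjusted p = 8.49e-05 by limma) and higher in 28 of 37 strains, and 5 HFD arrays lay above every CD array. In batch 1 alone it did not pass (adjusted p = 0.0923).

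Adrb3, whose mean score was at the 38.5th percentile of all probesets, gave no diet call. It ran from 6.85 (BXD79) through 7.31 to 8.53 (BXD56) on CD and from 7.01 (BXD96) through 7.34 to 7.95 (BXD100) on HFD, and the second highest CD value was 7.78. The difference was 0.09 ± 0.06 (SE; 95% interval -0.03 to 0.20, adjusted p = 0.243 by limma), with 20 of 37 strains higher on HFD and 17 lower. The phosphodiesterases moved in opposite directions. Pde3b ran from 7.20 (BXD89) through 7.70 to 9.09 (BXD56) on CD and from 7.14 (BXD80) through 8.04 to 9.04 (BXD79) on HFD, and was 0.25 ± 0.09 (SE) higher on HFD (adjusted p = 0.0156 by limma, 25 of 37 strains), although neither batch alone passed (adjusted p = 0.0873 in batch 1 and 0.209 in batch 2). Pde4d ran from 11.87 (BXD97) through 12.11 to 12.40 (BXD48) on CD and from 11.78 (BXD45) through 11.98 to 12.22 (BXD61) on HFD. It fell by 0.109 ± 0.024 (SE; adjusted p = 2.02e-04 by limma) and was lower on HFD in 31 of 37 strains, with 4 HFD arrays below every CD array. In batch 1 alone the adjusted p was 0.0571.

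Of the 7 members 5 were called, 4 higher and 1 lower on HFD. Over all probesets 13551 of 35556 (38.1%) were called, 18.9% higher and 19.3% lower, so a call between diets was common on these arrays. In batch 1 alone 1 member was called, against 12.6% of probesets, and in batch 2 alone 3, against 24.4%. The median difference of the members was 0.09, and that of all probesets was -0.0007.

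**Figure D2:**
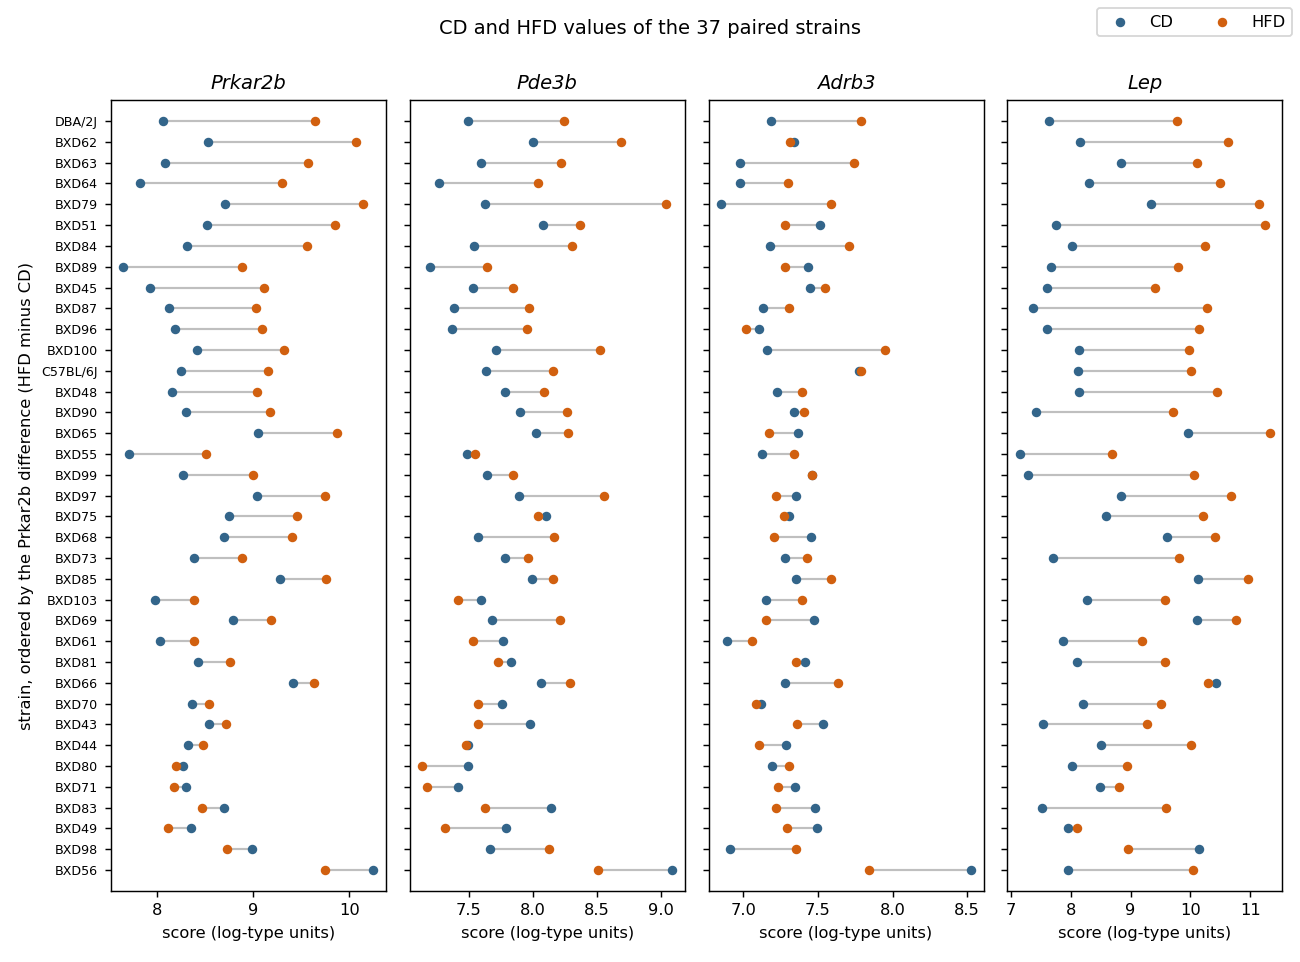
CD (blue) and HFD (orange) score (log-type units) of Prkar2b, Pde3b, Adrb3 and Lep in the 37 paired strains, ordered from top to bottom by the Prkar2b difference. Prkar2b was higher on HFD in 31 strains, Pde3b in 25, Adrb3 in 20 and Lep in 35.

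Fat cell genes rose with the diet as well. Of the 14 fat cell markers 10 rose and 1, Cfd, fell, by 0.608 (adjusted p = 1.15e-05 by limma), while Retn, Pck1 and Thrsp were not called. Over all probesets 18.9% were called higher and 19.3% lower. Lep rose by 1.58 ± 0.19 (SE; adjusted p = 5.02e-11), from a median of 8.13 on CD to 10.01 on HFD, and was higher in 35 of 37 strains. Cidec, which enlarges lipid droplets, rose by 0.75 and Plin1, which coats them, by 0.37, and the other 7 called markers, Slc7a10, Adipoq, Tusc5, Fabp4, Lipe, Cebpa and Pparg, by 0.26 to 0.55. Markers of other cells moved too, with 4 of 5 macrophage and 4 of 5 endothelial markers higher on HFD (Cd68 by 0.39 and Emcn by 0.28), where 18.9% of all probesets were called higher. The slow fibre markers had a median difference of -0.21 with 0 of 7 called, against 38.1% of all probesets called in either direction. The part of these cells in the differences of Prkar2b and Pde3b was not tested.

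With fat cell genes in the model the difference of Prkar2b shrank, and that of Prkaca did not. Prkar2b was 0.23 higher on HFD with the Plin1 value as a further term (adjusted p = 0.00161 by limma), 0.10 with the mean of the 14 fat cell markers (adjusted p = 0.108) and -0.071 with Lep (adjusted p = 0.732). Pde3b, at 0.25 without such a term, was at -0.029 with Plin1 (adjusted p = 0.701), -0.12 with the marker mean (adjusted p = 0.0342) and -0.092 with Lep (adjusted p = 0.596). Prkaca stayed between 0.17 and 0.19 with each of the 3 terms, the highest adjusted p being 0.00157. Pde4d was at -0.086, -0.083 and -0.066 in that order, and passed with Plin1 and the marker mean but not with Lep (adjusted p = 0.161). With Lep in the model 1 of the 7 members was called, against 19.9% of probesets. These fits compare diets at equal levels of a gene that itself differed between diets, and the order of events cannot be told apart in them.

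**Figure D3:**
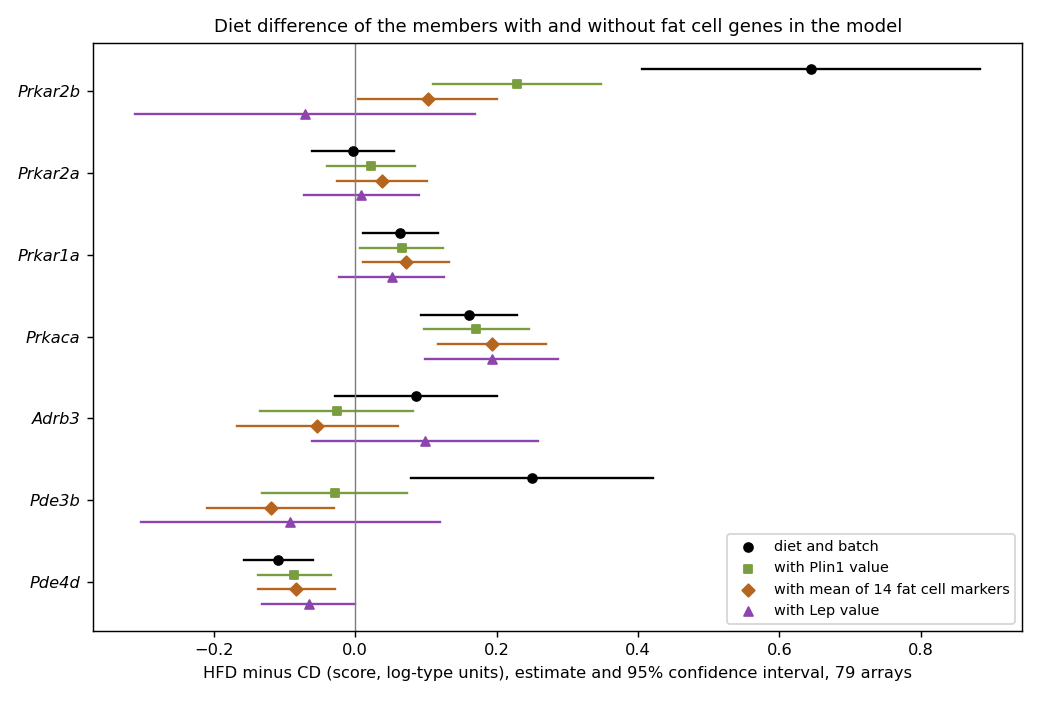
HFD minus CD difference (score, log-type units) of each member with its 95% confidence interval over 79 arrays, from fits with diet and batch alone and with the Plin1 value, the mean of 14 fat cell markers or the Lep value added. The Prkar2b estimate goes from 0.64 to 0.23, 0.10 and -0.071, whereas Prkaca stays between 0.16 and 0.19.

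Other genes of cAMP signalling were taken from a list of 65 in 12 roles, which holds the 7 members. In it 18 rose and 9 fell on HFD and 38 were not called, so 27 of 65 (41.5%) were called against 38.1% of all probesets, a share near the background. The median difference was 0.03. Among receptors, Adrb1, the β1-adrenergic receptor of heart and other tissues, fell by 0.289 ± 0.034 (SE; adjusted p = 6.20e-11 by limma). Prkar1b, the remaining regulatory subunit, fell by 0.116. Gnai1, an inhibitory G protein subunit, rose by 0.26 ± 0.07 (SE; adjusted p = 0.00297) and was not called with Plin1, the marker mean or Lep in the model or in batch 2 alone. Of 9 adenylate cyclases 4 rose and 3 fell, and Adcy7 and Adcy4 rose most, by 0.16 and 0.15. Of 13 phosphodiesterases 2 rose and 3 fell: Pde2a, which cGMP stimulates, rose by 0.17, and Pde8a fell by 0.140. Both cAMP-gated exchange factors rose, Rapgef4 by 0.18. Crem, a transcription factor that cAMP induces, rose by 0.19 and the coactivator Crtc2 by 0.13, whereas none of the 6 cAMP-induced genes on the list, Nr4a1 and Fos among them, was called. Adrb1 and Crem passed in all 17 alternative fits, with Adrb1 between -0.30 and -0.25 and Crem between 0.14 and 0.21.

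Strains differed in Prkar2b beyond the spread left between the 2 arrays of a strain. The strain F statistic was 2.72 (adjusted p = 0.0167 by limma), and Prkar2b was the 1 member called, against 13.6% of all probesets. Without BXD56 its F was 2.47 (adjusted p = 0.0338), against 13.4% of probesets called. The F of the other members ran from 1.32 for Prkar1a to 2.01 for Pde3b (adjusted p = 0.397 and 0.094), with a median of 1.33 over all probesets. On CD the range of Prkar2b over strains was 2.67, or 1.11 from the 10th to the 90th percentile, and on HFD 2.03, or 1.41. Prkar2a, Prkar1a, Prkaca and Pde4d had ranges from 0.431 to 0.7 on either diet, while those of Pde3b were 1.89 on CD and 1.90 on HFD. Those of Adrb3 were 1.675 on CD and 0.937 on HFD. Without BXD56 the CD range was 1.843 for Prkar2b, 1.104 for Pde3b and 0.925 for Adrb3. From the 10th to the 90th percentile the range of Pde3b was 0.689 on CD and 1.06 on HFD. In the order of strains BXD56 stood 0.829 above the next CD strain, BXD66 at 9.42, and the next largest step between neighbours was 0.224 on CD and 0.199 at most on HFD. With an array per strain and diet, neighbours in the order could not be told apart.

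A strain's Prkar2b level on CD went with its level on HFD. After removal of batch means, r was 0.459 and rho 0.431 over 37 strains (permutation p = 0.00347 and 0.00784), r was 0.396 once the 2 strains most distant from the CD median were left out (permutation p = 0.0192), and 0.429 without BXD56. It was 0.609 among 17 strains whose arrays were both of batch 2 (permutation p = 0.00797). Among 12 whose arrays were both of batch 1 it was 0.36 (permutation p = 0.259), so the relation did not pass in each batch. In the 8 with arrays in different batches it was 0.10 (exact permutation p = 0.81). These 8 held both orders of batch and diet, and their batch means were not removed. Batch and strain therefore cannot be told apart there, nor in any other value given with different batches. There were 8 relations between CD and HFD levels, 1 for each member and for Lep. The pooled r of Lep is not given because its CD values form separate clusters. Prkar2a had an r of 0.360 (permutation p = 0.0288), Pde4d 0.361 (0.0274), Prkaca 0.304 (0.0672) and Prkar1a 0.149 (0.382), again over 37 strains, and without the 2 farthest strains they gave 0.276, 0.377, 0.277 and 0.121. By batch these 4 ran from -0.430 for Prkar2a with different batches to 0.623 for Prkar2a with both arrays in batch 1. BXD56 formed a cluster of its own in the CD values of Adrb3 and Pde3b. With and without it r was 0.235 (permutation p = 0.164) and -0.0135 (0.939) for Adrb3, and 0.327 (permutation p = 0.0476) and 0.259 (0.128) for Pde3b. Adrb3 gave 0.471 where both arrays were of batch 2, a group that holds BXD56, and -0.837 in the 8 with arrays in different batches (exact permutation p = 0.00861).

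Prkar2b followed fat cell genes across strains, among them Plin1, Adipoq, Cidec and Retn. On CD 9 of the 14 fat cell markers had a slope on Prkar2b past the threshold, on HFD 13 of 14 and in the diet differences of strains 10 of 14. Over all probesets the called shares were 0.264% on CD, 1.18% on HFD and 0.2% in the differences. With Plin1 the r was 0.884 on CD (n = 42, rho 0.866), 0.908 on HFD (n = 37, rho 0.913) and 0.884 in the differences (n = 37, rho 0.864), each with a permutation p of 1e-05, the smallest the draws can give, and adjusted p of 1.52e-10, 9.18e-12 and 8.13e-09 by limma. Leaving out the 2 farthest arrays or strains gave 0.819, 0.900 and 0.882, and r was 0.821 and 0.912 in batches 1 and 2 on CD and 0.919 and 0.916 on HFD. In the differences it was 0.877 and 0.865 with both arrays in batch 1 or in batch 2 and 0.943 with different batches. With Adipoq r was 0.865, 0.917 and 0.835, with Cidec 0.864, 0.908 and 0.857, and with Retn, which encodes resistin, 0.757, 0.843 and 0.860. Thrsp, a gene of lipogenesis, was not called with Prkar2b in any of the 3. Cfd, which fell on HFD, had a low r of 0.184 on CD (-0.0507 without BXD56), with 0.560 on HFD and 0.396 in the differences. Without BXD56 the marker counts were 8, 12 and 10 of 14, against 0.169%, 1.22% and 0.177% of probesets, and in batch 1 alone they were 0 on CD and 8 on HFD, against 1 of 35555 probesets (0.00281%) and 0.183%.

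On HFD Lep and Prkar2b rose together over strains, with r of 0.833 and rho of 0.836 (n = 37, permutation p = 1e-05, adjusted p = 5.42e-08 by limma), 0.800 without the 2 farthest arrays, 0.783 in batch 1 and 0.873 in batch 2. On CD the Lep values fell into separate clusters, 33 strains with a mean of 7.95 and none above 8.85, and 9 strains with a mean of 9.90 and none below 9.27. Within the 33 strains r with Prkar2b was 0.207 (rho 0.211, permutation p = 0.248), 0.0315 in batch 1 and 0.275 in batch 2 with BXD56. Without the 2 farthest strains, BXD56 being 1 of them, it was 0.317. Within the 9, which include BXD66, BXD79 and BXD65, it was 0.774 (rho 0.783, exact permutation p = 0.0175) and 0.668 without the 2 farthest. Prkar2b ran from 8.698 (BXD68) to 9.419 (BXD66) in the 9 strains, all above the CD median of 8.358. In the 33 it ran from 7.576 (BXD50) to 10.248 (BXD56), the highest of the diet. Besides BXD56, only BXD97 (9.036), BXD75 (8.749) and BXD83 (8.7) of the 33 exceeded 8.698. In the diet differences r was 0.512 (rho 0.563, n = 37, permutation p = 0.0011) but the adjusted p was 0.254 by limma. It was 0.570 without the 2 farthest strains, 0.507 and 0.569 with both arrays in batch 1 or in batch 2 and 0.394 with different batches, and without BXD56 r was 0.606 and the adjusted p 0.0436. In fits of all probesets on Lep, limma called 1 of 7 members on CD, Prkar2b, against 0.2% of probesets. That slope spans both clusters, and 0 members were called in batch 1 alone, in batch 2 alone, without the 2 farthest arrays or on ranks, where 17, 3, 54 and 1 of 35555 probesets (0.0478%, 0.00844%, 0.152% and 0.00281%) were called in all. On HFD it called 2, Prkar2b and Pde3b, against 0.712%, and 0 in batch 1 alone, against 0.0281%.

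**Figure D4:**
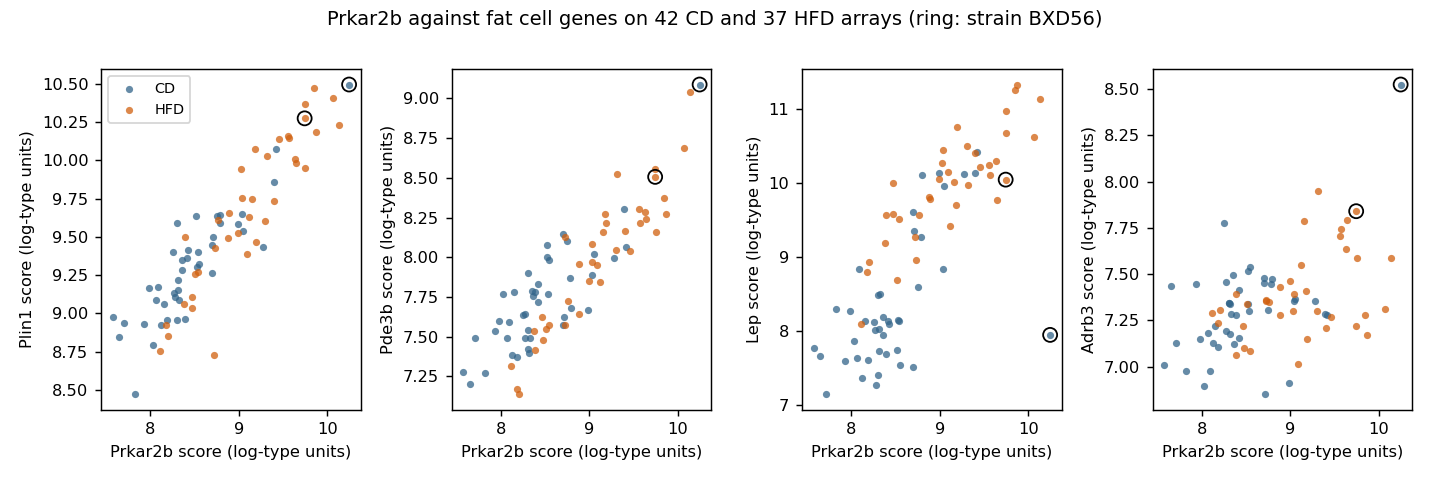
Scores (log-type units) of Plin1, Pde3b, Lep and Adrb3 against that of Prkar2b on 42 CD (blue) and 37 HFD (orange) arrays, with a ring around strain BXD56. Plin1 and Pde3b climb with Prkar2b on both diets, and Lep does so on HFD, where r is 0.833. On CD the 9 strains of the higher Lep cluster have Prkar2b of 8.698 or more, above the CD median of 8.358. Adrb3 spreads widely, with r of 0.236 on CD without BXD56.

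Adrb3 did not follow Prkar2b past the threshold. On CD r was 0.520 with BXD56 (n = 42, permutation p = 0.00149, adjusted p = 0.085 by limma). It was 0.236 over the 41 strains without BXD56 (rho 0.318, permutation p = 0.138 and 0.043, adjusted p = 0.753 by limma), on HFD 0.409 (n = 37, rho 0.331, permutation p = 0.0115 and 0.0462, adjusted p = 0.307) and in the differences 0.485 (n = 37, rho 0.401, permutation p = 0.00219 and 0.0148, adjusted p = 0.399). Without the 2 farthest arrays or strains r was 0.272, 0.384 and 0.492, the CD value again without BXD56. By batch r was 0.293 in batch 1 on CD, 0.598 in batch 2 with BXD56 and 0.196 without it, and 0.365 and 0.492 in batches 1 and 2 on HFD. In the differences it lay between 0.365 and 0.536 by batch. With Lep as a further term Adrb3 passed (adjusted p = 4.93e-05 on CD and 0.043 on HFD by limma), and 2 members were called on each diet against 0.2% and 0.146% of probesets. Once BXD56 was also left out Adrb3 did not pass (adjusted p = 0.731 and 0.123), and the called shares were 0.045% and 0.101%. With Lep itself Adrb3 had an r of -0.118 in the 33 lower CD strains, 0.137 in the 9 higher ones and 0.083 on HFD.

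Pde3b was the 1 other member that followed Prkar2b, and it did so on both diets. On CD r was 0.830 with BXD56 (n = 42, adjusted p = 2.63e-08 by limma) and 0.751 over 41 strains without it (rho 0.748, adjusted p = 2.51e-05 by limma), on HFD 0.925 (rho 0.919, n = 37, adjusted p = 1.12e-12) and in the differences 0.790 (rho 0.726, n = 37, adjusted p = 1.47e-05), each with a permutation p of 1e-05. Without the 2 farthest arrays or strains it was 0.694 (BXD56 also left out), 0.911 and 0.825. In the CD fit of batch 1 alone it did not pass (adjusted p = 0.0993), where 1 of 35555 probesets was called. By batch r was 0.809 in batch 1 on CD, 0.840 in batch 2 with BXD56 and 0.719 without it, 0.921 and 0.928 in batches 1 and 2 on HFD, and in the differences 0.879 with both arrays in batch 1, 0.757 with both in batch 2 and 0.771 with different batches. The other 4 members were not called with Prkar2b in any of the 3: r ran from -0.374 for Pde4d on HFD to 0.008 for Prkaca on CD, and for Prkaca it was -0.305 on HFD and -0.363 in the differences. Of the whole list of 64 other pathway genes 2 were called on CD, 3 on HFD and 2 in the differences, against 0.264%, 1.18% and 0.2% of probesets, Gnai1 and Pde3b each time and Adcy5 on HFD. Slopes on Prkar2b or Lep did not differ between diets at the threshold: limma called 0 of 35555 probesets for each (0%), with 1298 and 1313 at an unadjusted p under 0.05. The Pde3b slope on Prkar2b was 0.18 steeper on HFD (95% interval 0.02 to 0.33) and the Plin1 slope 0.17 steeper (0.00 to 0.33). In all 78 relations were computed, 60 with Prkar2b and 18 with Lep.

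**Figure D5:**
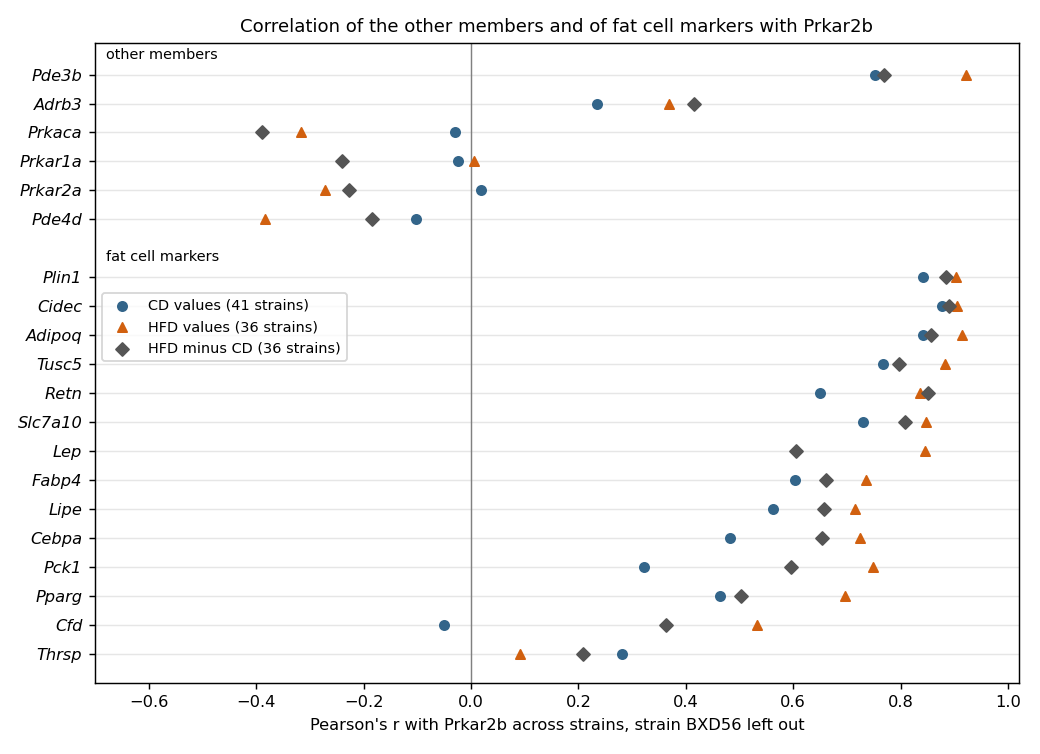
Pearson's r of 6 members and 14 fat cell markers with Prkar2b across strains, from CD values (41 strains), HFD values (36 strains) and HFD minus CD differences (36 strains), all without BXD56. Pde3b lies with most fat cell markers and the remaining kinase subunits and Pde4d lie near or below 0, as does Cfd on CD (-0.0507), Thrsp is low on HFD (0.091) and in the differences (0.209), and Lep on CD is not drawn because its values form separate clusters.

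Ranked by the mean of r on CD and on HFD over 22334 other genes, the 10 genes most like Prkar2b were Plin1 (0.896), Adipoq (0.891), Cidec (0.886), Gnai1 (0.883), Tshr (0.880), Pde3b (0.878), Car5b (0.873), Lgals12 (0.870), Slc1a5 (0.868) and Fads3 (0.867). Of them 7 kept a place in the first 10 without BXD56, where Cidec (0.890) led and Plin1 was at place 4. Of the 14 fat cell markers 11 were in the first 100 with BXD56 and 10 without it. Lep counts among them, at places 40 and 17, although its r on CD is pooled over separate clusters. Tshr is the thyrotropin receptor, which also acts through cAMP, and Lgals12 a galectin of lipid droplets. Adrb3 was at place 297, and without BXD56 at 962, while Prkar1a was at 11036, Prkaca at 19246, Prkar2a at 20501 and Pde4d at 21768. The lowest were Speg (-0.486), a kinase of striated muscle, Usp25 (-0.482) and R3hdm1 (-0.482).

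Markers of other cells also went with Prkar2b on HFD. All 5 macrophage markers were called there, with Cd68 at a slope of 0.45 and Adgre1 at 0.35, against 1.18% of all probesets. So were 2 of 5 fibroblast markers, Dpt at 0.52 and Col3a1 at 0.18, but none of either list on CD or in the differences. No marker of endothelial, smooth muscle, Schwann, red blood or brown fat cells was called with Prkar2b on CD, on HFD or in the differences. Nor was any slow or fast fibre marker. The called shares of all probesets were 0.264% on CD, 1.18% on HFD and 0.2% in the differences. With shares this low, no call is likely in lists this short, so its absence does not set these cells apart. The part of these cells in the Prkar2b values was not tested.

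The parental strains gave no call among the members, against 1.26% of probesets. Prkar2b was 8.25 on CD and 9.16 on HFD in C57BL/6J and 8.06 and 9.64 in DBA/2J, a difference, C57BL/6J minus DBA/2J, of -0.15 ± 0.39 (SE; adjusted p = 0.997 by limma, with the spread borrowed from all paired strains). These values were at places 13 and 8 from the lowest of 42 on CD and 20 and 30 of 37 on HFD, inside the range of the BXD strains. Adrb3 was 7.78 and 7.79 in C57BL/6J on CD and HFD, and 7.18 and 7.79 in DBA/2J. Prkar1a in C57BL/6J on HFD, at 10.92, was the lowest value of that diet.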

How the data were processed

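Quadriceps RNA was hybridised to Affymetrix Mouse Gene 1.0 ST arrays, and groups, strains and the 2 batches were taken from the titles. The values the authors deposited are a score per probeset, rescaled to a common mean (8.0) and SD (2.0) on each array. Affymetrix Expression Console is named in the submitters' processing notes, and the summarization, log base and genome build are not given in the sources used here. The plan assumed log2 values. Its linear models were kept for the scores, which behave as logs. Precision is set by how many arrays there were, since arrays give no read depth. A chow column headed BXD92 was assigned to the title BXD92a, the 1 title it matched.

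Diet (with batch), strain, parental and association effects were fitted with limma 3.58.1 (R 4.3.3; lmFit and eBayes), with a call where the p-value, adjusted by Benjamini-Hochberg over all probesets, was below 0.05. The fits were tested on simulated data. Permutation tests were two-sided with 100000 draws, or exact below 10 values, in Python 3.11.15 with numpy 2.4.6. Clusters came from a Gaussian mixture in scikit-learn 1.9.0. Arrays on the 2 diets can be paired by strain, as the labels give it. The main diet fit held diet and batch but no strain term, so its adjusted p-values are unpaired. With strain as a block the adjusted p by limma was 5.7e-07 for Prkar2b, 0.00682 for Pde3b and 0.0768 for Prkar1a. In that fit 4 members were called, against 40.6% of probesets. Deviations of the 2 arrays of a strain from their diet means correlated at a median of 0.214 (-0.136 to 0.395), over 0.1 in 33 of 37 strains. The alternatives were the batch term, single batches, strain as a block, strains left out, the methods' t-test, limma-trend, other scalings, a filter on dim probesets, ranks and fat cell genes as further terms.

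Genes named are the members, the fat cell markers, the pathway genes called between diets (at most 12, largest difference first), the 10 genes most and 3 least like Prkar2b, and the extreme strains. Members and lists were chosen with earlier results of these data known. Adcy5, Prkar1b, Nr4a1, Fos, Ucp1 and the macrophage, endothelial and fibroblast markers were named after their values were seen. Promoters are from RefSeq (GRCm38.p6).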

Additional observations from a re-analysis of the deposited data

How the results depend on the processing

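The number of arrays limits the precision, members have 1 probeset each, so no other probeset could be tried, and the cause of the changes below was not tested. Among the main results, 228 alternative values kept their direction and side of the threshold, or their count within 1.5 times. Of the others 30 moved further than that or than the replicate spread, 5 fell short of the threshold, 3 passed it where the main value had not, and 1 changed direction.

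With strain as a replicate block the Prkar2b diet difference was 0.64, and no other member's call changed but that of Prkar1a. It was 0.10 with the fat cell marker mean and -0.0708 with Lep as a further term. Members called between diets numbered 5, but 1 in batch 1 alone, 3 in batch 2 alone, 1 with Lep, 3 with the marker mean and 3 with Plin1. Probesets called numbered 13551 (38.1%), but 4491 (12.6%) in batch 1, 8691 (24.4%) in batch 2, 5292 without dim probesets (29.8%), 7087 (19.9%) with Lep, 10998 (30.9%) with the marker mean and 12260 (34.5%) with Plin1. Pathway genes called numbered 27, but 6, 13 and, with Lep, 10. Prkar2a, at -0.003, was above 0 in batch 2 (0.0013), with the marker mean (0.038), with Lep (0.0088), with median-centred arrays (0.0139), in paired strains only (0.0004), with Plin1 (0.022) and with the strain block (0.0018). Adrb3 was -0.0532 with the marker mean and -0.0262 with Plin1, and Pde3b -0.1193, -0.029 and, with Lep, -0.0917.

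In the strain effect 2 of the 6 members left were called without dim probesets, against 5410 of 17778 probesets (30.4%) there and 13.6% of all. On CD the Pde3b slope on Prkar2b was 0.56 in batch 1 alone, where 0 members, 0 fat cell markers and 1 of 35555 probesets were called. With Lep as a further term the Adrb3 slope was 0.49 on CD and 0.46 on HFD, and 2 members were called on each diet (0.2% and 0.146% of probesets). Fat cell markers called numbered 5 on CD (0.045% of probesets) and 6 on HFD (0.101%) with Lep as a further term and BXD56 left out. On HFD they numbered 8 in batch 1 alone (0.183% of probesets) and 8 with Lep as a further term (0.146%). In the differences they numbered 6 where both arrays shared a batch (0.124%) and 6 on ranks (0.121%). The Lep slope in the differences was 0.96 without BXD56. In the fits on Lep, 0 members were called on CD in either batch alone, without the 2 farthest arrays or on ranks, and 0 on HFD in batch 1 alone, where the Prkar2b slope was 0.67.

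The CD to HFD correlation of Prkar2b was 0.36 in batch 1 and 0.10 with different batches. With different batches it was -0.43 for Prkar2a, -0.0049 for Prkar1a, -0.0838 for Prkaca and -0.84 for Adrb3, and for Adrb3 also -0.16 without the 2 farthest strains, -0.0124 as rho and -0.0135 without BXD56. The Prkar2b strain range was 1.11 on CD and 1.41 on HFD from the 10th to the 90th percentile.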
